A study of Mus musculus with 6 samples.

Results

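The comparison set the distal colon of mice given dextran sulphate sodium (DSS) together with montmorillonite powder against that of mice given DSS alone, over all genes of the deposited table. It held 4 of the series' 6 libraries, 2 from DSS and 2 from DSS plus montmorillonite, and 20533 genes. All mice were wild-type C57BL/6 males aged 7 weeks, treated for 7 days and sampled on day 7. Both groups received 2% DSS, the sources used here do not give the amount of montmorillonite, and the other 2 libraries came from mice given water. The question was how the colon transcriptome under DSS stood when the clay was given as well, with each DSS plus montmorillonite library shown by itself and with the weight on genes for which both lay beyond both DSS libraries.

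DSS is a sulphated polysaccharide that damages the colonic epithelium and is widely used to provoke colitis in mice. Montmorillonite is a layered clay mineral used as an adsorbent in diarrhoea. The colonic epithelium is renewed from dividing cells at the crypt base. Their progeny stop dividing as they move up the crypt and become absorptive colonocytes, which take up salt and water, or goblet cells, which secrete the mucus layer. Injury strips this epithelium, draws in neutrophils and monocytes and activates the stroma beneath.

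Values are normalised read counts, in which the reads of a library are divided by 1 size factor, and the libraries with montmorillonite are called the clay libraries below. Multiplied back into whole reads, the DSS libraries held 21481594 and 15212981, the clay libraries 6395768 and 4494666 and the water libraries 8936826 and 3741494. A single read was worth 0.335 and 0.479 in DSS against 1.44 and 1.82 in the clay libraries, so low values were coarser with the clay. Whether separate mice gave the replicates of a group is not stated in the labels, so every p-value measures the spread between these libraries, which may be technical. Genes that mark the distal large bowel were present in all 4 libraries, with Hoxb13 at 960.1 and 582 in DSS and 3997 and 1306 with montmorillonite. Of 9 distal colon genes tested, both clay libraries lay above both DSS libraries in 5 and below in none. The shares of all genes were 19.4% and 20.6%. Summed, the distal colon genes had 4433 and 2328 in DSS, 10783 and 4246 with montmorillonite and 10734 and 11178 in water. Of 7 small intestine genes tested 3 lay above and 1 below. The part of sampling position in the results was not tested.

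Tissue other than colon stood out in some libraries. Krt5, a keratin of stratified squamous epithelium such as that of the anus, had 7.37 and 12952 in DSS and 36.0 and 2469 with montmorillonite. Its partner Krt14 had 69.0 and 11155 in DSS and 41.7 and 1991 with montmorillonite, so replicate 2 of each group was the higher for both. The 15 squamous genes together summed to 5379 and 45398 in DSS, against 17445 and 18709 in the clay libraries, most of which was Sprr2a3. Without Sprr2a3 the other 14 summed to 214 and 41351 in DSS and 151 and 8082 with montmorillonite, and the list's median stood at -3.16 in clay replicate 1 and 2.32 in clay replicate 2. The 12 skeletal muscle genes summed to 127 and 3614 in DSS, against 4805 and 213 in the clay libraries. The part of this tissue in the results was not tested. A list's median in 1 DSS plus montmorillonite library is also its median without the other.

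Over all 20307 genes tested, limma with an intensity trend called 0 genes higher and 0 lower (smallest Benjamini-Hochberg adjusted p = 0.266), which is 0% in each direction. A further 226 genes had a mean under 1 over the 6 libraries and were not tested. At an unadjusted p under 0.05 there were 1298 genes higher (6.39%) and 993 lower (4.89%). edgeR's quasi-likelihood test and voom also called 0, with adjusted p values of at least 0.353 and 0.338. DESeq2 called 472 genes higher (2.32%) and 166 lower (0.817%), of which 468 and 166 did not overlap between the groups, and 54 and 22 when only the 4 libraries were fitted. Without DSS plus montmorillonite replicate 2, limma called 1059 genes higher and 996 lower, and the single library left in that group was then assumed to vary like the others. No exact permutation test was run, since with 2 libraries on each side its smallest possible p is 0.333. No difference of a single gene below therefore passed the test that was set, and values are given library by library. Values with an SE in brackets are limma's log2(value + 1) differences, DSS plus montmorillonite minus DSS, and replicate 1 is given first in each pair of values.

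Both DSS plus montmorillonite libraries lay above both DSS libraries in 3932 genes (19.4%) and below both in 4179 (20.6%), so that the groups did not overlap in 8111 genes (39.9%). These shares are the background against which the gene groups are read. With scaling by library size only the counts were 2259 above (11.1%) and 6728 below (33.1%). List counts given with that scaling are read against those shares. Of the genes beyond DSS 25.1% instead of 48.5% then lay above, and the median log2 difference of all genes moved from -0.07 to -0.31. Replicate 1 stood further from DSS than replicate 2. Of 13992 genes with a mean of at least 20 over the 4 libraries, 12.5% were more than 2-fold above and 18.6% more than 2-fold below the mean of DSS in replicate 1, against 4.28% and 4.27% in replicate 2. Among those genes 3041 were above DSS in both libraries, with replicate 1 the further out in 77.8% of them, and 2899 were below, with replicate 1 the further out in 72.3%. At the boundary the gap between the nearest libraries was 0.001 on the log2 scale for Zmiz1 (964 and 1394 in DSS and 1395 and 1529.8 with montmorillonite), just inside the genes above, whereas Ptpn3 (467 and 377 in DSS and 1070.1 and 467 with montmorillonite) lay just outside them. Eif3m (782 and 620.3 in DSS and 619.9 and 521 with montmorillonite) was just inside the genes below.

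**Figure D1:**
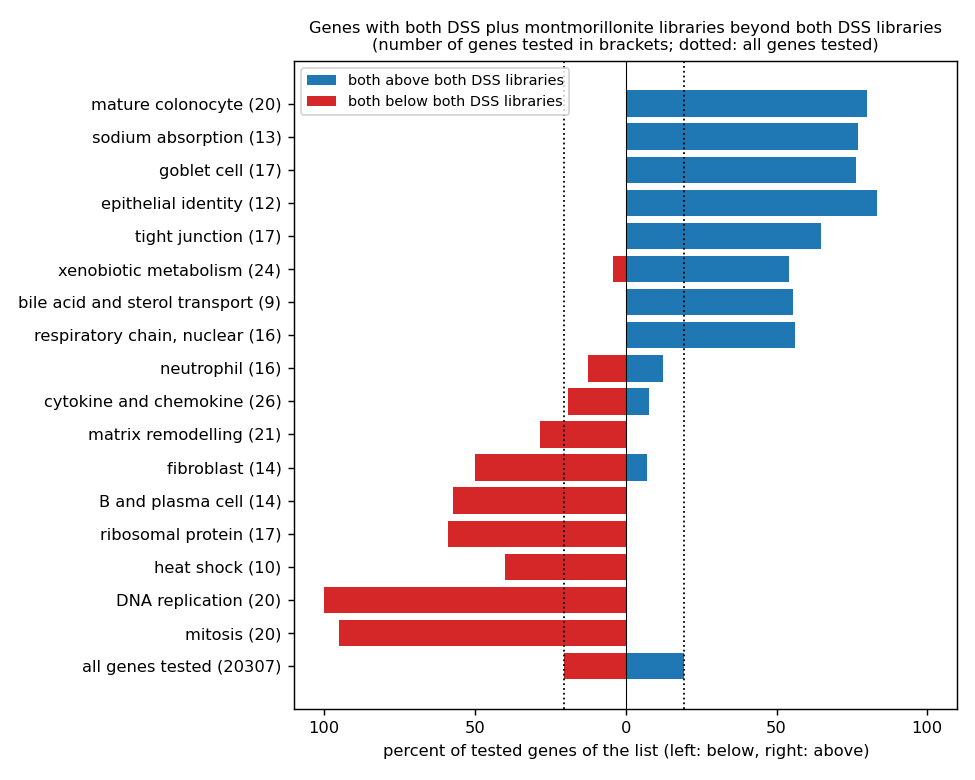
Share of the tested genes of each list, in percent, for which both DSS plus montmorillonite libraries lay above (right, blue) or below (left, red) both DSS libraries, with dotted lines at the shares over all genes tested (19.4% above and 20.6% below). The epithelial lists drawn point above, with 16 of 20 colonocyte and 13 of 17 goblet cell genes. The DNA replication and mitosis lists point below, with 20 of 20 and 19 of 20 genes. Among epithelial lists not drawn, 7 of 20 antimicrobial and 4 of 11 tuft cell genes lay above, and none and 1 below. Crypt stem genes had 2 of 15 above and 3 below, regenerating epithelium 4 of 14 and 2, and enteroendocrine 2 of 14 and none.

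Genes of the absorptive colonocyte were higher with montmorillonite in both libraries. Of 20 mature colonocyte genes 16 lay above both DSS libraries and none below, against 19.4% and 20.6% of all genes. The median log2 difference of the list was 1.44, next to -0.07 for all genes, and stood at 1.71 in replicate 1 and 1.05 in replicate 2. Leaving out each library in turn gave 1.05 to 1.71. None of the 20 passed limma, and DESeq2 called 11 higher, against 2.32% of all genes. In bulk tissue, fewer cells of a type and less RNA per cell cannot be told apart. General epithelial genes stood in the same position. Of these, 10 of 12 (Epcam, Cdh1, Krt8 and others) lay above DSS and none below (6 of 12 above with scaling by library size only), and their summed level was 65681 and 44584 in DSS, 167971 and 86859 in the clay libraries and 154227 and 161046 in water. The part of epithelial content in the colonocyte values was not tested.

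Car4 (ENSMUSG00000000805.18, chromosome 11, 84957786 to 84966044), the membrane carbonic anhydrase of surface colonocytes, had the largest gap of these genes, 1.90 on the log2 scale. Its normalised read count was 1861 and 1216 in DSS, 15849 and 6951 with montmorillonite and 9723 and 10750.2 in water. The lower clay library was thus well above the higher DSS library, and the water values lay between the clay libraries (log2 difference 2.80 ± 0.42 SE). Slc26a3 (ENSMUSG00000001225.12, chromosome 12, 31390871 to 31473917), an apical anion exchanger whose loss causes chloride diarrhoea, had 746 and 1138 in DSS, 14221 and 3461 with montmorillonite and 10753 and 8453 in water (2.93 ± 0.62 SE). Here replicate 1 was above both water libraries and replicate 2 below them.

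The water channel gene Aqp8 showed how far the clay libraries could part. It had 600.0 and 503 in DSS, against 6652 and 805 with montmorillonite, so replicate 1 was near the water libraries (6454 and 5813) and replicate 2 near DSS (2.07 ± 0.87 SE). Car1, a cytosolic carbonic anhydrase of the colon, had 7339.6 and 4457 in DSS and 13343 and 8461 with montmorillonite (0.89 ± 0.34 SE), both above the water values of 6937 and 5952. Clcn2 (ENSMUSG00000022843.16, chromosome 16, 20702964 to 20717746), an epithelial chloride channel, was nearly the same in the clay libraries, at 2478 and 2480.1, against 729 and 747 in DSS and 1932 and 1988 in water (1.75 ± 0.18 SE). The colonocyte genes Car2, Slc9a3, Guca2b and Tmigd1, named after their values were seen, overlapped between the groups.

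Sodium uptake in the distal colon runs through the epithelial sodium channel and the sodium pump and is driven by aldosterone. Of 13 genes of this list 10 were above DSS in both clay libraries and none below, with a median log2 difference of 1.47 (1.69 in replicate 1 and 0.92 in replicate 2). DESeq2 called 8 of them higher, against 2.32% of all genes. Hsd11b2, the enzyme that keeps glucocorticoids off the aldosterone receptor, had 260.0 and 244 in DSS and 1328 and 587 with montmorillonite (1.80 ± 0.38 SE), next to 999 and 1017 in water. Scnn1b, a subunit of the channel, had 41.9 and 46.5 in DSS and 99.2 and 198 with montmorillonite (1.65 ± 0.44 SE), with replicate 2 the higher and water at 68.1 and 100.1. The remaining members Scnn1g, Sgk1 and Nedd4l overlapped between the groups. Of these, Sgk1, a kinase induced by corticosteroids and stress, had 705 and 1402 in DSS and 606 and 4755 with montmorillonite.

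Goblet cell genes were higher in both clay libraries as well. Of 17 genes 13 lay above DSS and none below, with a median log2 difference of 1.69 (2.11 in replicate 1 and 1.20 in replicate 2). Without DSS replicate 2 it was 1.04 and without DSS replicate 1 it was 2.20. DESeq2 called 7 higher, against 2.32% of all genes. Muc2 (ENSMUSG00000025515.15, chromosome 7, 141690340 to 141754693), the gel-forming mucin of the mucus layer, had 7658 and 4408 in DSS, 20424 and 17255 with montmorillonite and 8739 and 7448 in water (1.69 ± 0.32 SE, 95% confidence interval 0.93 to 2.45). Both clay libraries were therefore above all 4 others. This position, above every DSS and water library, was held by 6 of the 17 goblet cell genes and by 6.12% of all genes tested.

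Other goblet cell genes stood nearer to water. Retnlb, a secreted bactericidal protein, had 183 and 101 in DSS, 649 and 507 with montmorillonite and 878 and 641 in water (2.07 ± 0.35 SE). Bcas1, a marker of goblet cells, had 174 and 99.7 in DSS, 883 and 454 with montmorillonite and 612 and 496 in water (2.26 ± 0.41 SE). Clca1, a protease secreted with the mucus, had 11478 and 1605 in DSS and 42371 and 6145 with montmorillonite and overlapped, since replicate 2 lay below DSS replicate 1. The overlapping members were Clca1, Agr2, Ern2 and Creb3l1, all with a mean higher than in DSS.

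Among 20 epithelial antimicrobial genes 7 lay above DSS in both clay libraries (35%, against 19.4% of all genes) and none below, and 13 overlapped. Dmbt1 (ENSMUSG00000047517.11, chromosome 7, 131032053 to 131121630), a scavenger receptor secreted into the mucus that binds bacteria, had 85519 and 84744 with montmorillonite against 33909 and 29510.0 in DSS and 23546 and 24566 in water (1.43 ± 0.29 SE). The clay libraries agreed closely and were far above all 4 others. The 7 also held Lypd8, which coats flagellated bacteria, Pigr, the receptor that carries IgA across the epithelium, and Saa1, a serum amyloid A, named after their values were seen. The acute members parted the clay libraries instead. Lcn2, which sequesters bacterial siderophores, had 1172 and 1949.6 in DSS and 40.3 and 3392 with montmorillonite. The bactericidal lectin gene Reg3b had 19.8 and 29.7 in DSS and 1.44 and 174 with montmorillonite. Reg3g, its relative, had 22.4 and 56.1 in DSS and 8.63 and 69.0 with montmorillonite. All of these were low in replicate 1 and above the DSS libraries in replicate 2, while neither lectin had a read in water.

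**Figure D2:**
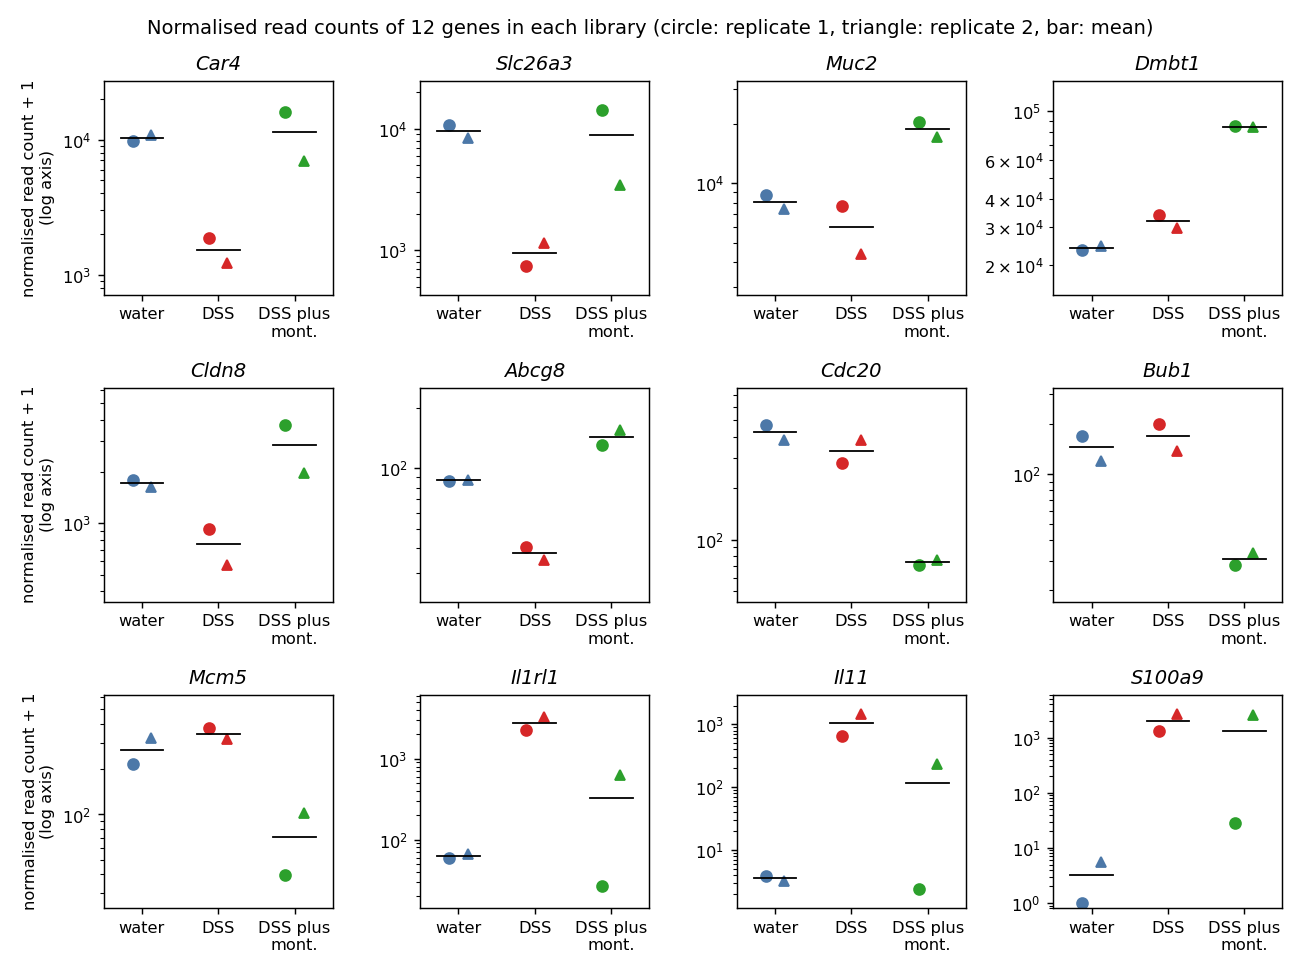
Normalised read count plus 1 on a log axis for 12 genes in each library, with replicate 1 as a circle, replicate 2 as a triangle and the group mean as a bar. Muc2 and Dmbt1 are higher with montmorillonite than in DSS and in water, Cdc20 and Bub1 are lower than in both, and S100a9 splits the DSS plus montmorillonite libraries (27.3 and 2602).

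Junction genes of the same cells were higher by smaller amounts. Of 17 tight junction genes 11 lay above DSS in both clay libraries and none below, with a median log2 difference of 0.81 (1.24 in replicate 1 and 0.48 in replicate 2). Cldn8, a claudin that seals the distal colon against ions, had 926 and 571 in DSS, 3742 and 1955 with montmorillonite and 1786 and 1631 in water (1.89 ± 0.37 SE). Cldn3, another sealing claudin, had 1467 and 1407 in DSS, 5527 and 3089 with montmorillonite and 4382 and 4457 in water (1.52 ± 0.30 SE), and Cldn7 had 2570.5 and 2243 in DSS, 6261 and 4637 with montmorillonite and 5749 and 6229 in water (1.17 ± 0.23 SE). Ocln, which encodes occludin, was above DSS by a small gap, at 1559 and 518 against 499.8 and 256. Tjp1, the scaffold ZO-1, had 1463 and 1558 in DSS, 2330.1 and 1919 with montmorillonite and 1645 and 1501 in water (0.49 ± 0.20 SE). The epithelial transcription factor Elf3 had 2548 and 2754 in DSS and 6442 and 4489.6 with montmorillonite (1.02 ± 0.28 SE).

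The widest gap above DSS among protein-coding genes with a mean of at least 50 belonged to Casp14 (ENSMUSG00000005355.9, chromosome 10, 78711991 to 78718294), a caspase family member tied to the terminal differentiation of epithelium. Its values were 48.2 and 32.1 in DSS, 266 and 398 with montmorillonite and 381 and 534 in water, a gap of 2.44 and a log2 difference of 3.01 ± 0.35 SE. Tfcp2l1 (ENSMUSG00000026380.10, chromosome 1, 118627945 to 118685168), a transcription factor of transporting epithelia, had 1145 and 1097 in DSS, 4879 and 3797 with montmorillonite and 4499 and 3659 in water (1.94 ± 0.22 SE). For both genes the clay libraries stood near the water libraries. Slc25a34, a mitochondrial carrier, had 55.6 and 52.3 in DSS and 357 and 213 with montmorillonite, and Cobl, which nucleates actin at the brush border, had 153 and 162 in DSS and 729 and 518 with montmorillonite. Apol10a, an apolipoprotein L with close paralogs among which reads may be split, had 19.8 and 21.6 in DSS and 127 and 89.0 with montmorillonite, still far below water at 742 and 559. The kinase gene Tesk2 had 212 and 229 in DSS and 785 and 792 with montmorillonite, and Cpn2, the carrier subunit of carboxypeptidase N, had 19.1 and 24.0 in DSS and 87.7 and 78.1 with montmorillonite. In both the clay libraries were above water too, where Tesk2 had 475 and 478 and Cpn2 had 17.3 and 22.7.

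Enzymes that handle foreign compounds were mostly higher. Of 24 xenobiotic genes 13 lay above DSS in both clay libraries and 1 below. The median log2 difference was 1.41 (2.00 in replicate 1 and 0.78 in replicate 2), and DESeq2 called 8 higher, against 2.32% of all genes. The efflux pump gene Abcb1a, which encodes a P-glycoprotein, had 687 and 618 in DSS, 6458 and 1523 with montmorillonite and 3829 and 3061 in water (2.26 ± 0.61 SE). The carboxylesterase gene Ces2c had 173 and 105 in DSS, 669 and 349 with montmorillonite and 673 and 548 in water. Its relative Ces1f was the member below, with 234 and 276 in DSS and 66.2 and 198 with montmorillonite. Cyp2d10 and Cyp2d9 are cytochrome P450 genes so alike that reads may be split between them. Cyp2d10 had 104 and 83.4 in DSS and 1329 and 336 with montmorillonite, and Cyp2d9 had 119.6 and 84.8 in DSS and 935 and 385 with montmorillonite. Replicate 1 was the higher clay library in each of these genes but Ces1f.

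Sterol export genes were above DSS in both clay libraries and higher in replicate 2 than in replicate 1. Abcg5 and Abcg8 encode the subunits of the transporter that returns plant sterols and cholesterol to the gut lumen. Abcg8 (ENSMUSG00000024254.15, chromosome 17, 84676302 to 84700333) had 39.5 and 34.0 in DSS, 129 and 154 with montmorillonite and 85.4 and 86.4 in water (1.92 ± 0.33 SE), and Abcg5 had 112 and 80.5 in DSS, 263 and 371 with montmorillonite and 199 and 241 in water (1.71 ± 0.31 SE). Both genes were thus above all 4 other libraries. They lie head to head on chromosome 17, and the start of Abcg5 is 110 bases from 1 of the 2 annotated starts of Abcg8 (RefSeq, GRCm38.p6). The stretch between those starts is shown because both genes stood above all other libraries. It reads on the plus strand at chr17:84683012-84683120 as follows.
Abcg5 to Abcg8: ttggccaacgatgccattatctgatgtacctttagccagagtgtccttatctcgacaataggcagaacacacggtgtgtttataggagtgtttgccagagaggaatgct
The other annotated start of Abcg8 lies within Abcg5, and whether counting used strand is not stated, so reads of the pair may not be wholly separable. Of 9 bile acid and sterol genes tested 5 lay above DSS in both clay libraries and none below, against 19.4% and 20.6% of all genes. The bile acid receptor gene Nr1h4 was among the 5 (named after its values were seen). The median log2 difference of that list was 0.73, with 1.10 in replicate 1 and 1.34 in replicate 2 of DSS plus montmorillonite.

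Mitochondrial energy genes encoded in the nucleus differed less. Of 16 nuclear genes of the respiratory chain 9 lay above DSS and none below, against 19.4% and 20.6% of all genes. The medians were 0.93 in replicate 1 and 0.13 in replicate 2. Cox5a, a cytochrome oxidase subunit, had 870.3 and 779 in DSS and 1792 and 1186 with montmorillonite, below water at 1897 and 1876. With scaling by library size only, 2 of the 16 lay above, near the 11.1% of all genes. None of the 13 mitochondrially encoded genes lay above or below. Of 15 glycolysis genes 6 lay above (40%) and none below, with medians of 0.10 in replicate 1 and 0.43 in replicate 2. With scaling by library size only 2 of the 15 lay above, again near the 11.1% of all genes. Of 18 genes of fatty acid oxidation and ketogenesis 11 lay above (61.1%) and none below. Cpt1a, the gatekeeper of mitochondrial fatty acid import, had 1179.9 and 1441 in DSS and 3495 and 2349 with montmorillonite (1.14 ± 0.25 SE). With scaling by library size only 5 of the 18 lay above, and with TMM scaling 6, against 11.1% and 16.9% of all genes. The zinc importer gene Slc39a4 had 1288 and 901 in DSS and 2514 and 3011 with montmorillonite, above 1735 and 1494 in water (1.35 ± 0.25 SE), and the zinc exporter gene Slc30a1 had 215 and 267 in DSS and 921 and 396 with montmorillonite.

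Genes of cell division were lower with montmorillonite in both libraries, and lower than in water as well. All 20 DNA replication genes and 19 of 20 mitosis genes lay below both DSS libraries and none above, against a background of 20.6% and 19.4%. The median log2 difference was -1.53 for replication (-1.64 in replicate 1 and -1.17 in replicate 2) and -1.58 for mitosis (-1.69 and -1.49). With each library left out in turn the medians were -1.75 to -1.17 and -1.90 to -1.23. No gene passed limma, and 18 and 19 members had an unadjusted limma p under 0.05 in this direction, against 4.89% of all genes. DESeq2 called 7 and 16 lower, against 0.817% of all genes. In 18 replication genes and 19 mitosis genes the clay libraries were below all 4 DSS and water libraries, a position held by 7.51% of all genes.

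Cdc20 (ENSMUSG00000006398.15, chromosome 4, 118432901 to 118437352), the activator that starts anaphase, had 278 and 384 in DSS, 70.5 and 74.5 with montmorillonite and 468 and 382 in water (-2.16 ± 0.27 SE, 95% confidence interval -2.81 to -1.50). Bub1 (ENSMUSG00000027379.13, chromosome 2, 127801122 to 127831865), a kinase of the spindle checkpoint, had 198 and 137 in DSS, 27.3 and 32.7 with montmorillonite and 168 and 118 in water (-2.42 ± 0.37 SE). In both genes the clay libraries were close together and far below the rest. Cdk1, the mitotic kinase, had 389.9 and 221 in DSS and 89.2 and 107 with montmorillonite, and Foxm1, the transcription factor of the mitotic genes, had 151 and 159 in DSS and 28.8 and 49.1 with montmorillonite (-2.02 ± 0.36 SE). The kinetochore gene Kntc1 had 87.4 and 82.5 in DSS and 20.1 and 25.4 with montmorillonite, and Ckap2l, a spindle protein, had 225 and 181 in DSS and 48.9 and 49.1 with montmorillonite. Plk1 was the mitosis gene that overlapped, at 281 and 303 in DSS and 316 and 229 with montmorillonite.

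On the replication side, Mcm5 (ENSMUSG00000005410.6, chromosome 8, 75109569 to 75128439), a subunit of the replicative helicase, had 373 and 315 in DSS, 38.8 and 102 with montmorillonite and 217 and 321 in water (-2.42 ± 0.48 SE). Mcm2, another subunit, had 296 and 296 in DSS, 56.1 and 109 with montmorillonite and 152 and 314 in water (-1.91 ± 0.46 SE). In the helicase genes replicate 1 was the lower of the clay libraries. Asf1b, a histone chaperone of S phase, had 139 and 91.6 in DSS and 23.0 and 10.9 with montmorillonite, and Fignl1, a recombination factor, had 144 and 69.0 in DSS and 10.1 and 21.8 with montmorillonite. Of 8 replication-dependent histone genes tested, 2 lay below DSS (25%, against 20.6% of all genes) and 6 overlapped, and their transcripts lack the poly(A) tails of most messenger RNA. Of 15 crypt stem cell and Wnt target genes 2 lay above (13.3%) and 3 below (20%), no more than the 19.4% and 20.6% of all genes. With scaling by library size only 6 lay below, against 33.1% of all genes. Myc, a Wnt target that drives growth, had 184 and 409.9 in DSS and 57.5 and 151 with montmorillonite (-1.55 ± 0.57 SE), and Odc1, the first enzyme of polyamine synthesis, had 1227 and 1426 in DSS and 524 and 741 with montmorillonite (-1.09 ± 0.24 SE).

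Promoter sequence is shown for 5 of these genes because all of them stood below both DSS libraries. Mitotic genes are known for CCAAT boxes, bound by NF-Y, and for the cell cycle homology region, searched here as TTTGAA. Replication genes are known for E2F sites, searched here as TTTGGCGC, TTTCGCGC or TTTCCCGC. Windows ran from 250 bases before to 50 after each annotated start, both strands were read, and matches of different motifs were allowed to overlap. Where matches of the same motif overlapped, only the first was marked. In Mcm5 this left GCGCCAAA, which is TTTGGCGC on the other strand, partly in small letters. Each stretch below ends at the base before the start, on the gene's own strand, with matches in capitals (RefSeq, GRCm38.p6, Bub1 at chr2:127831860-127831959, Cdc20 at chr4:118437344-118437443, Cdk1 at chr10:69352913-69353072, Ckap2l at chr2:129297213-129297342, all on the minus strand, and Mcm5 at chr8:75109349-75109508 on the plus strand).
Bub1: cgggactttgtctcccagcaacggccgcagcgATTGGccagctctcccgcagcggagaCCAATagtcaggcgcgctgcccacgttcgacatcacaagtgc
Cdc20: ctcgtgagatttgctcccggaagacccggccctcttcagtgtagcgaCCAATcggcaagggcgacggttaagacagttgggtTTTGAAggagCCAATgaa
Cdk1: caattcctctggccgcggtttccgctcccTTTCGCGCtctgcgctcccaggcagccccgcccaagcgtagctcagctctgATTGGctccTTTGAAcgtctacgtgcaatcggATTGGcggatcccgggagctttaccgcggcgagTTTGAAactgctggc
Ckap2l: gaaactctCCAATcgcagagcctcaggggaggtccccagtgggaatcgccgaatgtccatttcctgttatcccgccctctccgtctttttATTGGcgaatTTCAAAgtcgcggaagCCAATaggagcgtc
Mcm5: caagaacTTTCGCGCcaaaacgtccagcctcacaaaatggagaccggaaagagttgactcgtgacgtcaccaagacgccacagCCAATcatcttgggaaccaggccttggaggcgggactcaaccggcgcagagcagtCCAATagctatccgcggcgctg
A CCAAT box was found in 14 of 16 windows of mitosis genes (16 of the 20 genes had a window) and in 37.4% of all 32851 windows, and TTTGAA in 11 of 16 and 17.9%. For the replication genes, 17 of 20 had a window, and 8 of their 21 windows held an E2F site, against 1.84% of all. Of 18 windows of mature colonocyte genes, 4 held a CCAAT box, 1 held TTTGAA and none an E2F site. Of 9 windows of goblet cell genes, 5 held a CCAAT box, 1 held TTTGAA and none an E2F site. The CCAAT box was in 12 of the 21 replication windows. These are matches of letters, not measured binding.

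**Figure D3:**
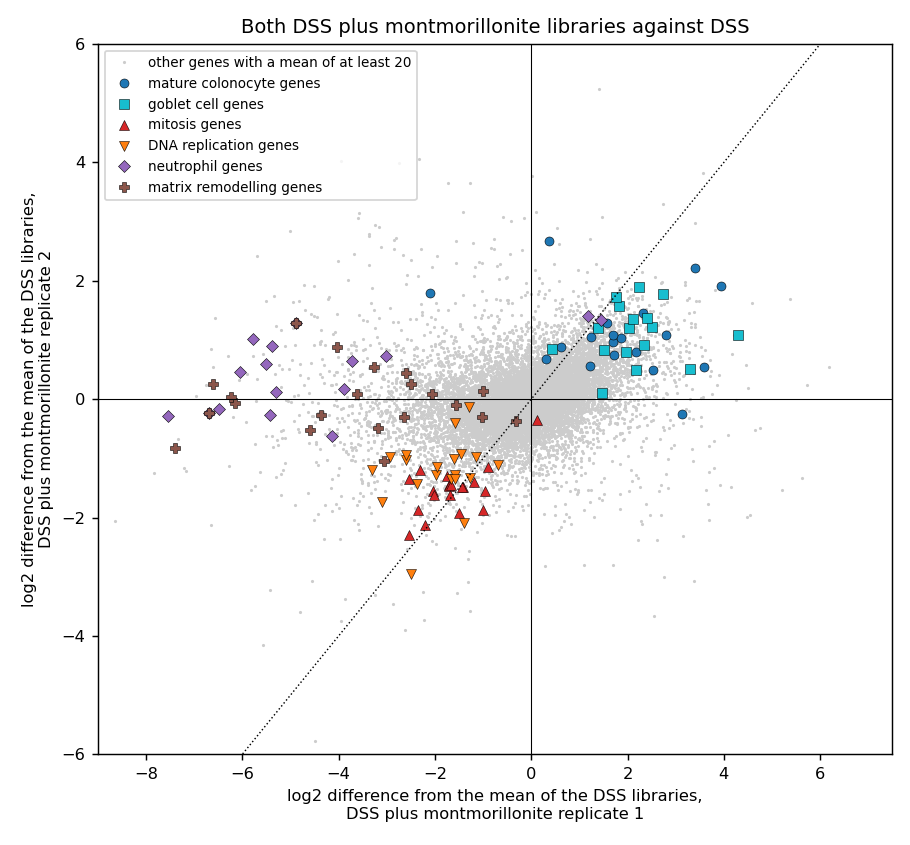
Log2 difference of each gene from the mean of the DSS libraries in DSS plus montmorillonite replicate 1 (x axis) and replicate 2 (y axis), for 13992 genes with a mean of at least 20 (grey) and all tested members of 6 lists, with a dotted line of equality. Colonocyte and goblet cell genes lie mostly up and to the right, replication and mitosis genes down and to the left, and most neutrophil and matrix genes far left but near 0 in replicate 2.

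Ribosomal protein and chaperone genes were lower by less. Of 17 ribosomal protein genes 10 lay below DSS in both clay libraries and none above, with medians of -0.13 and -0.36, and these 10 also lay below both water libraries. Rps27a had 3112 and 2358 in DSS, 1817 and 1568 with montmorillonite and 2349 and 2538 in water (-0.68 ± 0.22 SE), and Rpl13 4739 and 4941 in DSS, 3921 and 3539 with montmorillonite and 5792 and 6138 in water. With scaling by library size only, all 17 lay below, against 33.1% of all genes instead of 20.6%. Of 10 heat shock genes 4 lay below, including Hsph1, a cytosolic co-chaperone (607 and 519 in DSS and 159.7 and 299.8 with montmorillonite), and Hspd1, the mitochondrial chaperonin (2053 and 1281 in DSS and 846 and 739 with montmorillonite, -1.04 ± 0.26 SE). In the list of the unfolded protein response 6 of 16 lay below (37.5%, against 20.6% of all genes) and 2 above. With scaling by library size only 10 lay below, against 33.1% of all genes. Creld2, a chaperone-like protein of the endoplasmic reticulum, had 763 and 570.0 in DSS and 369.6 and 378 with montmorillonite.

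Genes of B cells were lower as well. Of 14 B and plasma cell genes 8 lay below DSS in both clay libraries and none above, with a median log2 difference of -1.48 (-2.20 in replicate 1 and -0.74 in replicate 2). Ms4a1, which encodes the B cell antigen CD20, had 894 and 261 in DSS, 36.0 and 151 with montmorillonite and 56.6 and 66.0 in water (-2.69 ± 0.79 SE), and Cd79b, a subunit of the B cell receptor, had 729.6 and 345 in DSS, 79.1 and 216 with montmorillonite and 71.0 and 95.5 in water. The plasma cell product Igha did not follow, at 122715 and 120011 in DSS and 32178 and 155034 with montmorillonite. In water, Ms4a1 lay between the clay libraries. Dividing lymphocytes express division genes as well. The 14 B and plasma cell genes, most of whose level was Igha, summed to 177350 and 157485 in DSS, against 47945 and 193496 in the clay libraries. Their part in the division values was not tested. T and NK cell genes were below in 2 of 16 and above in none, a smaller share than the 20.6% of all genes. The 2 were Cd3d, a subunit of the T cell receptor complex, with 44.9 and 37.4 in DSS and 24.5 and 19.99 with montmorillonite, and Trbc2, a constant region of the receptor, with 112 and 71.9 in DSS and 44.6 and 50.9 with montmorillonite.

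A few inflammatory and stromal genes were below DSS in both clay libraries, although by very different amounts. Il1rl1 (ENSMUSG00000026069.15, chromosome 1, 40429570 to 40465415), the receptor for the alarmin interleukin-33, had 2254 and 3250.2 in DSS, 25.9 and 619.6 with montmorillonite and 57.6 and 66.0 in water (-4.39 ± 1.28 SE). Il11 (ENSMUSG00000004371.14, chromosome 7, 4772373 to 4782859), a cytokine of activated fibroblasts, had 651 and 1443 in DSS, 1.44 and 231 with montmorillonite and 2.88 and 2.27 in water (-5.35 ± 1.89 SE), where the lowest clay value stands for 1 read. Replicate 1 was below both water libraries for Il1rl1. For Il11 the water values stand for only 3 reads and 1 read, so replicate 1 cannot be set apart from water. In both genes replicate 2 lay between water and DSS. Aplnr (ENSMUSG00000044338.9, chromosome 2, 85136225 to 85139923), the apelin receptor of growing vessels, differed in that the clay libraries agreed, at 38.8 and 40.0 against 229.8 and 242 in DSS and 51.8 and 38.7 in water. Its gap of 2.49 was the widest below DSS among protein-coding genes with a mean of at least 50 (-2.55 ± 0.34 SE). Ereg, a growth factor that binds the EGF receptor, had 3437 and 5185 in DSS and 262 and 1742 with montmorillonite, and Grem1, a BMP antagonist of crypt-base fibroblasts, had 6632 and 4858 in DSS and 663 and 3363 with montmorillonite. The ion channel gene Trpa1 had 219 and 107 in DSS and 5.75 and 36.3 with montmorillonite, and the tetraspanin gene Tspan6 134 and 170.2 in DSS and 46.0 and 43.6 with montmorillonite. Ccl7, a monocyte chemokine, had 286 and 178 in DSS and 47.5 and 99.9 with montmorillonite (-1.70 ± 0.45 SE).

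Most inflammatory genes, by contrast, parted the clay libraries. Of 16 neutrophil genes 2 lay below DSS in both (12.5%), 2 above (12.5%) and 12 overlapped. Both shares were under those of all genes, 20.6% below and 19.4% above. With scaling by library size only or with thinned reads 4 lay below, against 33.1% and 18.9% of all genes. The list's medians were -5.35 in replicate 1 and 0.53 in replicate 2. The list's median of -2.38 became 0.53 without replicate 1. S100a9, a subunit of calprotectin, had 1315 and 2696 in DSS and 27.3 and 2602 with montmorillonite, and S100a8, its partner, had 826 and 1849 in DSS and 21.6 and 2502 with montmorillonite. Csf3r, the receptor for granulocyte growth factor, was below DSS in both, at 38.8 and 451 against 547 and 891, as was Trem1, an activating receptor of myeloid cells (0 and 153 against 161 and 215). The members above were Cd177 and Ly6g, of which Ly6g has close paralogs. Cd177 had 311 and 344 in DSS, 890.3 and 832 with montmorillonite and 1265 and 971 in water (1.39 ± 0.22 SE), and Ly6g had 2137 and 2365 in DSS, 5084 and 5954 with montmorillonite and 2989 and 3193 in water (1.29 ± 0.20 SE). Both are known as granulocyte surface markers, yet in the water libraries they were abundant while S100a8 and S100a9 had almost no reads.

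The cytokine and matrix remodelling lists also stood far lower in replicate 1 than in replicate 2. Of 26 cytokine and chemokine genes 5 lay below (19.2%), 2 above (7.69%) and 19 overlapped. The share below was near the 20.6% of all genes and the share above was under their 19.4%. The list's median was -3.20 in replicate 1 and 0.27 in replicate 2. Il1b, the central cytokine of acute inflammation, had 1165 and 1165 in DSS and 90.6 and 901 with montmorillonite, below DSS in both. Il6 overlapped, with 78.7 and 338 in DSS and 1.44 and 205 with montmorillonite. Tnf overlapped with DSS at 69.0 and 158 against 114 and 61.8. Ccl20, an epithelial chemokine that attracts lymphocytes and dendritic cells, was above DSS in both (84.9 and 99.9 against 49.2 and 34.0). Of 21 matrix remodelling genes 6 lay below and none above, against 20.6% of all genes, with medians of -3.26 and -0.07. Mmp10, a stromelysin, had 3913 and 4194 in DSS and 23.0 and 2293 with montmorillonite. Tnc, a matrix glycoprotein of healing tissue, had 2782 and 5544 in DSS and 472 and 1902 with montmorillonite. Mmp10 and Tnc were thus below DSS in both clay libraries, by very different amounts. Fibroblast genes were below in 7 of 14 (50%) and above in 1, with medians of -1.76 and -0.29. Collagen genes were below in 4 of 15 (26.7%, against 20.6% of all genes) and above in none.

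**Figure D4:**
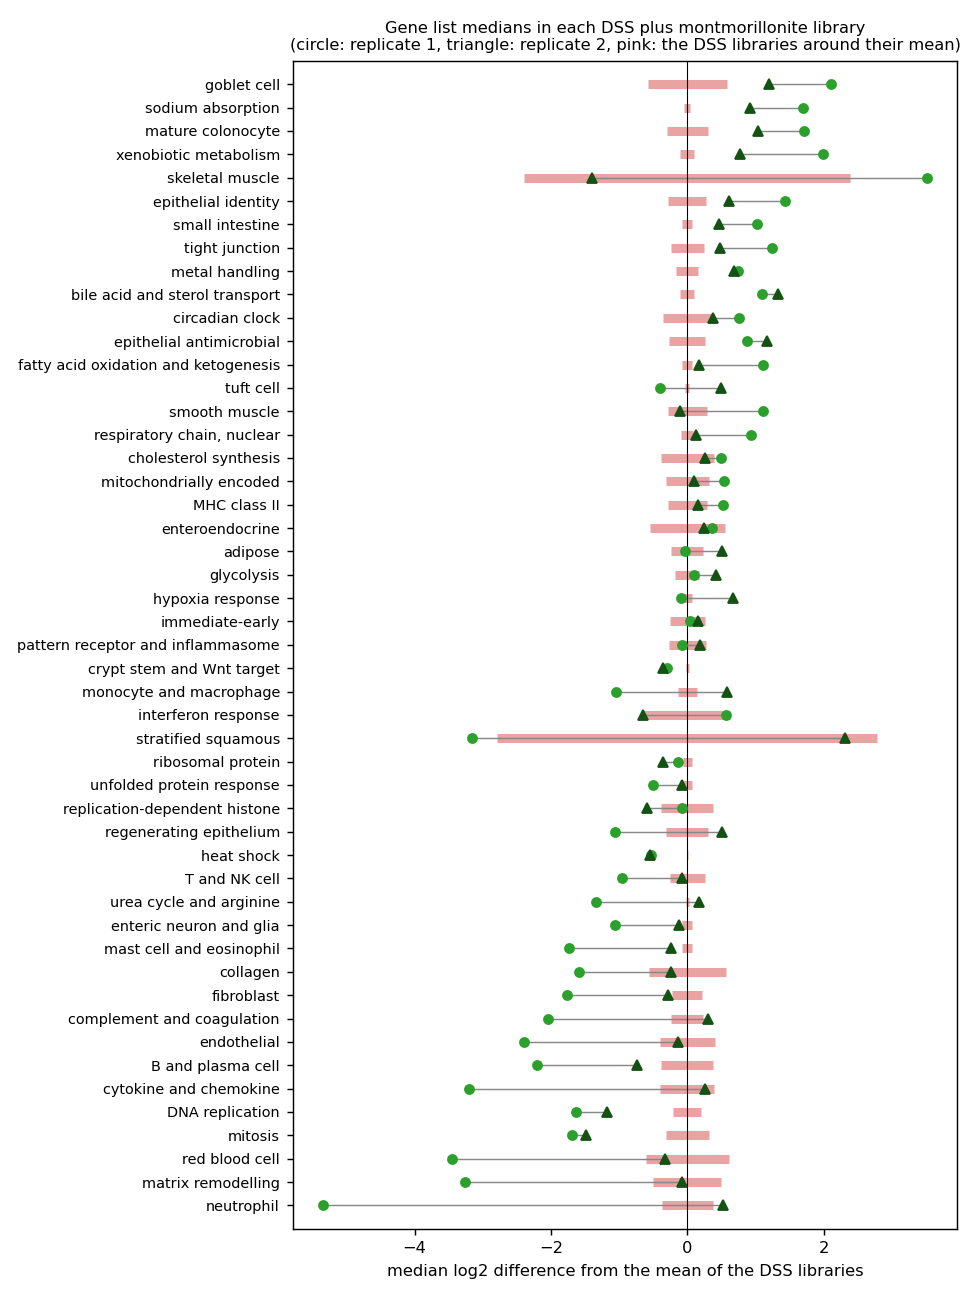
Median log2 difference of each gene list but 1 from the mean of the DSS libraries, in DSS plus montmorillonite replicate 1 (circle) and replicate 2 (triangle), with a pink bar for the median distance of the DSS libraries around their mean. The list not drawn is that of distal colon genes, with medians of 1.41 in replicate 1 and 0.40 in replicate 2. Goblet cell, sodium absorption and colonocyte lists lie to the right in both libraries and mitosis and DNA replication to the left in both, whereas neutrophil genes lie at -5.35 and 0.53.

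Of 17 pattern receptor and inflammasome genes 5 lay above DSS in both clay libraries (29.4%) and 4 below (23.5%). Over all genes the shares were 19.4% above and 20.6% below, here and for the lists that follow. Il18, a cytokine made by epithelium, had 688 and 328 in DSS, 2228 and 1007 with montmorillonite and 611 and 616 in water (1.65 ± 0.47 SE). Gsdmd, the pore-forming gasdermin, had 2356 and 1624 in DSS, 4060.3 and 4369.6 with montmorillonite and 2302 and 2602 in water (1.11 ± 0.24 SE). Both were above water too. Among the members below, Tlr9, a receptor for bacterial DNA, had 67.0 and 40.7 in DSS and 14.4 and 27.3 with montmorillonite, and Nod1, a sensor of peptidoglycan, had 242 and 322 in DSS and 167 and 202 with montmorillonite. Of 18 monocyte and macrophage genes 1 lay above and 2 below, with medians of -1.05 in replicate 1 and 0.58 in replicate 2. Mertk, a receptor with which macrophages clear dead cells, was the 1 above, with 185 and 213 in DSS and 352 and 403 with montmorillonite (0.92 ± 0.23 SE). Ly6c2, a marker of inflammatory monocytes, had 1028 and 707 in DSS and 515 and 509 with montmorillonite, and Lyz2, a lysozyme of myeloid cells, had 6327 and 4393 in DSS and 1743 and 4252 with montmorillonite. Of 14 genes of regenerating epithelium 4 lay above (28.6%) and 2 below (14.3%). Ly6a, an interferon-inducible surface protein also found on repairing epithelium, had 7755 and 6475 in DSS and 12997 and 13818 with montmorillonite (0.92 ± 0.23 SE), whereas Clu, another gene of repairing epithelium, was just below DSS in replicate 2, at 234 and 2591 against 2779.9 and 2772. Klf4, a factor of differentiated epithelium, had 1667 and 1605 in DSS and 8647 and 3367 with montmorillonite (1.72 ± 0.42 SE). Of 15 clock genes 5 lay above (33.3%) and 1 below (6.67%). With scaling by library size only or by TMM 3 lay above, against 11.1% and 16.9% of all genes. Npas2, an activator of the clock, had 214 and 185 in DSS and 555 and 351 with montmorillonite, and Cry2, a repressor, had 109 and 253 in DSS and 421 and 405 with montmorillonite. The member below was Bhlhe41, another repressor, with 39.2 and 40.3 in DSS and 12.9 and 23.6 with montmorillonite. The sources used here do not give the hour of sampling.

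The genes that differed most between the clay libraries pointed to several tissues. Mptx1, a pentraxin of the intestinal epithelium, had 144 and 26.4 in DSS, 4561 and 90.8 with montmorillonite and 8747 and 7675 in water. Sycn, a secretory granule protein, had 140.4 and 60.9 in DSS, 4959 and 109 with montmorillonite and 4305 and 4562 in water. Both were high in clay replicate 1 and in water, and low in clay replicate 2 and in DSS. The muscle myosin gene Myh8 had 0 and 1184 in DSS and 921 and 23.6 with montmorillonite. In the other direction, the keratin gene Krt4 had 1.01 and 1347 in DSS and 0 and 278 with montmorillonite, and the platelet chemokine gene Ppbp had 12.4 and 9468 in DSS and 10.1 and 2545 with montmorillonite. Muscle thus ran high in replicate 1 of the clay group and replicate 2 of DSS, and the keratin and Ppbp in replicate 2 of each group.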

How the data were processed

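The deposited table holds 1 value per gene and library. Per the submitters' processing notes the build was mm10 (GRCm38). The sources used here name no aligner, counting tool or strand setting. Deposited values are a signal that the authors made, namely reads divided by 1 size factor per library: every value was a whole number of reads within 0.01 read. Names came from GENCODE M21 for 20500 genes, and 33 were not found. Tests used limma 3.58.1 with an intensity trend on log2(value + 1), all 6 libraries in 1 fit without covariates, a mean of at least 1 over the 6 libraries (226 genes left out), and Benjamini-Hochberg adjusted p below 0.05, two-sided. The design named this test for normalised values and edgeR for raw counts. Fold changes of low genes are understated on this scale. Alternatives were edgeR 4.0.16, DESeq2 1.42.0 and voom on recovered reads, other pseudocounts, filters and scalings, thinned reads, a replicate block and leaving out each library. Fits of edgeR and DESeq2 to only the 4 libraries were added after seeing the data.

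The comparison, the 50 gene lists and the naming rule were chosen with earlier results of these data known. Of the 745 genes on the lists 722 were tested. The gap is the log2(value + 1) distance between the nearest libraries of the groups. Named genes are the 12 protein-coding genes per direction with the largest gap (mean of at least 50), up to 2 members per list and direction (mean of at least 20), 14 set genes, the genes at the boundary (mean of at least 500) and the 4 per direction that differed most between the DSS plus montmorillonite libraries (mean of at least 200). Krt5, Krt14, Hoxb13, Sgk1, Clca1, Ces1f, Igha, Cdk1, Plk1, Epcam, Cdh1, Krt8 and the overlapping members were named after their values were seen. Genes of this rule that are not named in the text enter only the counts of their lists. Results for 2 genes that the rule names are not reported here.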

Additional observations from a re-analysis of the deposited data

How the results depend on the processing

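There were 2 libraries a group, of unequal depth, and they may be technical replicates. limma called 0 genes in either direction under both other pseudocounts, both other filters, fitting only the 4 libraries, scaling by library size and thinning. edgeR and voom called 0 too. With DESeq2 the calls were 472 higher and 166 lower, and 54 and 22 with only the 4 libraries. Leaving out each library in turn gave 0 to 1059 higher and 0 to 996 lower, with calls only without DSS plus montmorillonite replicate 2. Counts above and below DSS were 2259 and 6728 with scaling by library size, 1058 and 1318 for a gap of at least 0.5, and 5957 to 7870 and 6338 to 8707 with each library left out, where fewer libraries must agree by construction. A replicate block called 0 and 0 (smallest limma adjusted p = 0.147). Deviations of DSS and DSS plus montmorillonite libraries of the same number correlated at 0.409 over 13914 genes, but 2 numbers do not establish a pairing. Of 139 genes named, all kept their direction with scaling by library size and thinning. The log2 difference changed sign for Lcn2 with edgeR (0.10, also 0.10 with 4 libraries) and DESeq2 (0.14 and 0.12), Reg3b with pseudocount 10 (0.42), edgeR (1.77 and 1.78) and DESeq2 (1.83 and 1.81), Tmigd1 with the same settings (0.060, 0.60 and 0.61, 0.64 and 0.64) and Myh8 with edgeR (-0.34 and -0.35) and DESeq2 (-0.33 and -0.30), and the cause was not tested. With each library left out the sign changed for Car2 (-0.26 to 3.13), Guca2b (-0.15 to 1.14), Igha (-1.92 to 0.35), Il6 (-6.08 to 0.33), Krt14 (-5.26 to 2.06), Krt4 (-6.33 to 3.06), Krt5 (-5.42 to 5.17), Lcn2 (-5.20 to 1.17), Myh8 (-2.98 to 7.23), Nedd4l (-0.75 to 0.58), Plk1 (-0.35 to 0.12), Ppbp (-5.82 to 3.65), Reg3b (-3.37 to 2.80), Reg3g (-1.93 to 0.94), S100a8 (-5.78 to 1.02), S100a9 (-6.06 to 0.47), Scnn1g (-1.42 to 3.17), Sgk1 (-0.71 to 2.26), Tmigd1 (-2.11 to 1.80) and Tnf (-0.28 to 0.90).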

Other observations

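Values of groups not described above follow, against 19.4% of all genes above and 20.6% below DSS. Of 19 genes of cholesterol synthesis 7 lay above both DSS libraries and none below. With scaling by library size only 2 lay above, near the 11.1% of all genes. The median log2 difference was 0.44, which was 0.79 without DSS replicate 1, 0.09 without DSS replicate 2 and 0.26 without DSS plus montmorillonite replicate 1. Msmo1, a sterol oxidase of that pathway, had 1645 and 918 in DSS, 2357 and 2100.3 with montmorillonite and 2139 and 2345 in water. Hk1, a hexokinase of glycolysis, had 1056 and 1594 in DSS and 2289.8 and 2627 with montmorillonite, and Pfkp, a phosphofructokinase, had 2027 and 1675 in DSS and 2562 and 2749 with montmorillonite. Cox4i1, a cytochrome oxidase subunit, had 1799 and 2273 in DSS and 4124 and 2585 with montmorillonite. In the MHC class II list 4 of 9 genes lay above and 2 below. With scaling by library size only 2 lay above and 3 below, against 11.1% and 33.1% of all genes. H2-DMa, which helps load peptides, had 216 and 210.0 in DSS and 306 and 285 with montmorillonite, and Cd74, the invariant chain, had 6236 and 6374 in DSS and 10495 and 7262 with montmorillonite. The members below were H2-Oa and H2-Ob, subunits of the loading modulator found mainly in B cells, with 144 and 82.5 in DSS and 7.19 and 61.8 with montmorillonite for H2-Oa and 639.9 and 249 in DSS and 33.1 and 233 with montmorillonite for H2-Ob. Of 20 interferon genes 1 lay above and none below, fewer than in all genes. It was Irf1, an interferon-induced transcription factor, with 1341 and 1107 in DSS and 2729.9 and 1555 with montmorillonite.

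Of 14 endothelial genes 3 lay below (21.4%), near the share of all genes, and 1 above (7.14%). With scaling by library size only 7 lay below, against 33.1% of all genes, and with thinned reads 5, against 18.9%. Kdr, the main receptor for vascular endothelial growth factor, had 353 and 499.5 in DSS and 93.5 and 267 with montmorillonite. Cd34, a surface protein of stromal cells and vessels counted here with fibroblasts, had 563 and 883 in DSS and 252 and 419.7 with montmorillonite. Of 13 smooth muscle genes 1 lay above and none below, with medians of 1.12 in replicate 1 and -0.10 in replicate 2. Summed, they had 21873 and 38551 in DSS, 70503 and 28867 with montmorillonite and 39237 and 65234 in water. Of 14 enteric neuron and glia genes 6 lay below and 1 above. The neuropeptide gene Vip had 1128 and 721 in DSS, 230.1 and 463 with montmorillonite and 94.1 and 129.6 in water, and Gal, which encodes galanin, had 99.8 and 72.4 in DSS, 7.19 and 41.8 with montmorillonite and 1.92 and 0 in water. Col12a1, a fibril-associated collagen, had 912 and 1960.2 in DSS and 289 and 774 with montmorillonite. Hyou1, a chaperone of the endoplasmic reticulum, had 936 and 1058 in DSS and 516 and 694 with montmorillonite. Sprr2a3, the squamous gene above DSS, belongs to a cluster of near-identical copies and had 5165 and 4047 in DSS, 17294 and 10627 with montmorillonite and 16004 and 15722 in water.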
